A study of Homo sapiens with 12 samples.

Results

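PC3, a human prostate carcinoma line grown from a bone metastasis, was profiled after sharing medium with mouse muscle progenitor cells. The comparison took 6 of the 12 arrays of the series, 3 of PC3 cells with myoblasts and 3 of PC3 cells alone, chosen by the sample labels. The other 6 arrays, of the renal carcinoma line 786-O, were not used. In the co-culture group, 30000 PC3 cells were seeded at the bottom of a transwell plate in their F-12K-based medium, and after 6 h 10000 primary myoblasts were placed in the top chamber for 12 h. The myoblasts came from the limbs of 5-day-old C57BL/6-Tg GFP mice and had been expanded in a medium with basic fibroblast growth factor. In the group of PC3 cells alone no myoblasts were added. The design text of the series calls the co-culture 1:1, which differs from the cell numbers in the protocol. The labels do not say whether the cultures alone had the same 6 h before the 12 h began, nor what medium the top chamber held. The comparison asked which PC3 genes change when myoblasts are near but not touching, and it was made in a single cell line.

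Cells that receive interleukin-1, tumour necrosis factor or similar signals free the NF-kappaB transcription factors, which switch on chemokines, cytokines and their own inhibitors. CXC chemokines with an ELR motif draw neutrophils, CSF2 and CSF3 make and activate granulocytes, and IL6 signals through gp130 and STAT3. Interferons act through transcription factor complexes that bind interferon-stimulated response elements, and raise antiviral genes. Carcinoma lines such as PC3 are known to release CXC chemokines and IL6 even without a stimulus.

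The promoter windows of 5 genes that rose are shown because they hold matches to the binding motifs of these 2 systems. Each runs from 250 bases before the transcription start to 50 after it, 5′ to 3′ on the gene's strand, from RefSeq (GRCh38.p14). CXCL3 is at chr4:74038640-74038939 and CXCL2 at chr4:74099146-74099445, both on the minus strand. IL6 is at chr7:22726950-22727249, IFIT1 at chr10:89392373-89392672 and IFI44L at chr1:78620198-78620497, all on the plus strand. Capitals mark the 10-base kappaB consensus in the first 3 windows, where 2 matches overlapped by all but 1 base in CXCL3 and CXCL2, and, in the last 2, the core of an interferon-stimulated response element, searched as GAAA repeated after any 2 bases.
CXCL3: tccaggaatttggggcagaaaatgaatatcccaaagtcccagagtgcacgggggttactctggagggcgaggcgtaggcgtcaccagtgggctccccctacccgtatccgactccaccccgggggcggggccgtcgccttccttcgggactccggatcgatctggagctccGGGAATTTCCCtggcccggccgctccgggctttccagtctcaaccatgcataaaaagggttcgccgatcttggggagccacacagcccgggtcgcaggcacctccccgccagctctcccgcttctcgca
CXCL2: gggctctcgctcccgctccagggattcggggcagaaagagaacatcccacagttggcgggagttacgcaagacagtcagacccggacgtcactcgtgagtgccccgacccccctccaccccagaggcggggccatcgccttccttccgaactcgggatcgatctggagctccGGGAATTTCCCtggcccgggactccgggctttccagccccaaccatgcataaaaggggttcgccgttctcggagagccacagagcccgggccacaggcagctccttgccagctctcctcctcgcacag
IL6: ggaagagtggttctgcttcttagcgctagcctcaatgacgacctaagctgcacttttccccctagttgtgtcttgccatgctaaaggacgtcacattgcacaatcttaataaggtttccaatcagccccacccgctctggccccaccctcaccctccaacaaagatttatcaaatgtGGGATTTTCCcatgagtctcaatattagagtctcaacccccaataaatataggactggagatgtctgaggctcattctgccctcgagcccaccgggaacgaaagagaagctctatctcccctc
IFIT1: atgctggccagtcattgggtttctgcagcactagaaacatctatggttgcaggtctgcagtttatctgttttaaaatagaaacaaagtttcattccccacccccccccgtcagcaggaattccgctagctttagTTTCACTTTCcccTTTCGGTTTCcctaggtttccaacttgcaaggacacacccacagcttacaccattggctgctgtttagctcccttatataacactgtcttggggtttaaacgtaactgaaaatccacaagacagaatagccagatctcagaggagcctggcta
IFI44L: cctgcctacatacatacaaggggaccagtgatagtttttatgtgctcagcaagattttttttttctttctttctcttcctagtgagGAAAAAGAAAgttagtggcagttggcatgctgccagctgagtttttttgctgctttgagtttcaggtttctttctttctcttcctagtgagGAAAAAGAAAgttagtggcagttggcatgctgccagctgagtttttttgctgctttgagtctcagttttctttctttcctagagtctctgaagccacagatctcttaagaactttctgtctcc

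The kappaB match began 79 bases before the start in CXCL3, 78 before it in CXCL2 and 73 before it in IL6. Both strands were searched, and kappaB matches and paired GAAA matches overlapped in 2 windows of the whole table. The kappaB consensus was present in 11.3% of 35116 windows of this length and in 17.2% of the tested genes with a window. It was present in the windows of 5 of the 7 chemokines of the CXC list tested, and of 4 of the 6 that rose: CXCL1, CXCL2, CXCL3 and CXCL6. The paired GAAA element was present in 3.57% of all windows and in 3.85% of the tested genes with a window. It was present in 23 of the 30 antiviral genes tested that had a window, and in 7 of the 10 of these that rose: IFI44, IFI44L, IFIT1, ISG20, OAS3, DDX60 and SAMD9. In both lists the share was no higher among the members that rose than among all members tested. Over all genes with a window, the kappaB consensus was present in 24% of those called higher and 20.1% of those called lower. For the paired GAAA element these shares were 8.96% and 5.97%. The differences between shares were not tested. Such matches are descriptions of the letters in these windows.

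The 6 arrays were alike in overall signal, which the authors had processed before deposit. Their median signals ran from 5.46 to 5.54, and the share of probe sets at a signal of 32 or more from 39.67% to 39.79%. Array weights estimated in an alternative fit differed more, from 0.35 for replicate 1 alone to 3.8 for replicate 2 alone. The ratio of 3′ to 5′ signal for ACTB was 3.10 to 4.22 with myoblasts and 3.08 to 4.24 alone, and the correlations between arrays were 0.9974 to 0.9987 within groups and 0.9958 to 0.9973 between them. Of 6 carcinoma epithelium markers 5 were at a signal of 16 or more on every array, KRT18, KRT19 and EPCAM among them, and CDH1 was under 16 on every array. In the fit over all genes EPCAM was called higher (mean signals of 5056 with myoblasts and 3992 alone) and KRT8 lower (1890 and 2725). Of 10 luminal prostate markers 7 were under 16 on every array, KLK2, KLK3 and TMPRSS2 among them, while HOXB13 (309.5 to 409.8 with myoblasts, 274 to 313.7 alone) and STEAP2 (1062 to 1277 with myoblasts, 1192 to 1257 alone) were above it on every array. The summed signals of the luminal list were 1415 to 1731 with myoblasts and 1552 to 1575 alone. PC3 is known to have lost CTNNA1 and STAT3, and all 6 and all 4 of their probe sets lay under 16 on every array. Of 12 myoblast and muscle markers 11 were under 16 on every array, MYOD1, MYF5, MYOG and PAX7 among them. The probe sets are human and the myoblasts were from mice, so low signals here cannot show whether myoblast RNA was present. The summed signal of the myoblast and muscle list was 4892 to 5150 with myoblasts and 6890 to 7480 alone, nearly all of it MEF2C. MEF2C was called lower, with mean signals of 4940 with myoblasts and 7087 alone. Of 9 fibroblast markers 8 were under 16 on every array, with sums of 774.9 to 939.4 and 476.4 to 586.5, nearly all from COL1A1. All 6 leukocyte markers measured were under 16 on every array, with sums of 26.93 to 29.54 and 27.01 to 27.7. Of 5 endothelial markers 4 were under 16, with sums of 4396 to 5288 and 2555 to 3127 from PECAM1. PECAM1 was called higher, with mean signals of 4917 with myoblasts and 2898 alone. The part of these markers in the results was not tested.

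Of 12314 genes tested, 862 (7%) passed an adjusted p under 0.05: 452 (3.67%) were higher with myoblasts and 410 (3.33%) lower. The list counts given below are to be read beside these shares. The rises were the larger changes. At 2-fold or more, 134 genes (1.09%) were higher and 46 (0.374%) lower. The groups did not overlap for 3432 genes (27.9%), of which 1731 (14.1%) were higher and 1701 (13.8%) lower. With 1 array left out the number called was 341, 547 or 463 without replicate 1, 2 or 3 with myoblasts, and 1191, 357 or 463 without replicate 1, 2 or 3 alone. The median log2 difference of all genes was 0.01, and ACTB, the cytoskeletal actin, differed by 0.04 ± 0.03 on the log2 scale (SE, n = 3 per group, adjusted p = 0.357). In cultures measured in bulk, a change in the RNA of each cell and a change in the share of cells that make it cannot be told apart.

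**Figure D1:**
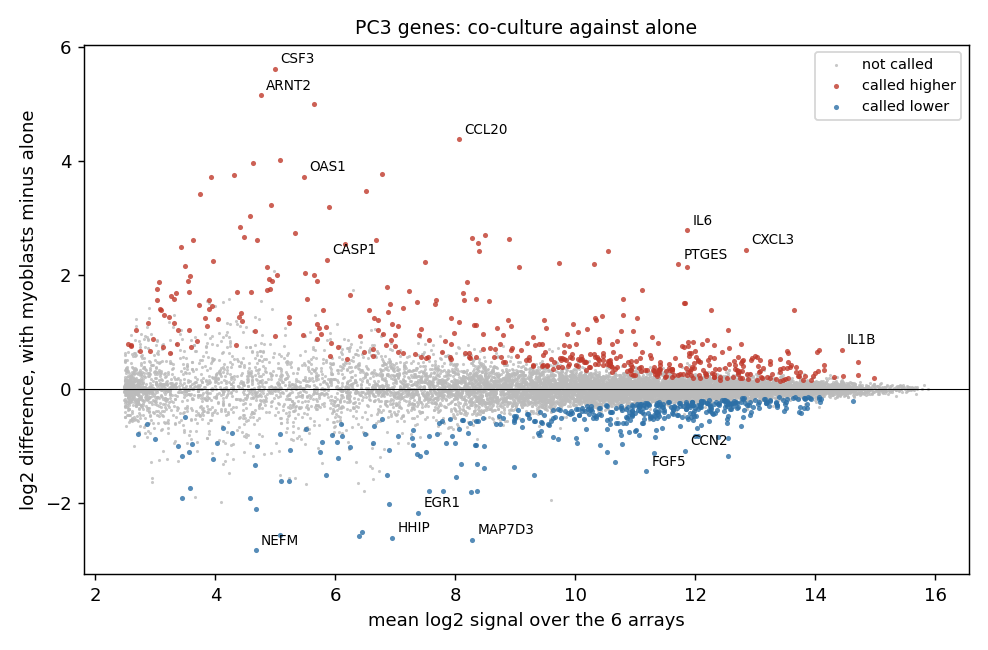
Log2 difference between PC3 with myoblasts and PC3 alone (vertical axis) against the mean log2 signal over the 6 arrays (horizontal axis), 1 point per gene tested. The 452 genes called higher reach larger differences than the 410 called lower, and IL6 and CXCL3 combine a large difference with a high signal.

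The neutrophil-attracting CXC chemokines rose together. Of 7 genes tested 6 rose and 0 fell, with a median log2 difference of 1.51 against 0.01 over all genes. CXCL3, a ligand of the receptor CXCR2, had signals of 17270, 16838 and 17136 with myoblasts, against 3108, 3065 and 3225 alone. It rose by a log2 difference of 2.45 ± 0.04 (SE over 3 arrays a group, adjusted p = 3.45e-07), and the spread within each group was small beside that gap. CXCL2, another CXCR2 ligand, had 7697, 8036 and 7782 with myoblasts and 1740, 1871 and 1708 alone, a 4.42-fold rise (adjusted p = 4.54e-06). CXCL1, the third close relative, had 21868, 19536 and 20897 with myoblasts and 8606, 7765 and 7505 alone, a 2.61-fold rise (adjusted p = 8.03e-05). The transcripts of CXCL1, CXCL2 and CXCL3 are much alike, so the probe sets may share some signal. CXCL6, which binds both CXCR1 and CXCR2, had 6368, 5343 and 6603 with myoblasts and 2450, 2116 and 1860 alone, a 2.86-fold rise (adjusted p = 0.000612).

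PPBP, the platelet chemokine precursor, rose as well. Its signals were 282.8, 313.7 and 182.2 with myoblasts, against 52.35, 32.75 and 40.53 alone, a 6.15-fold rise (adjusted p = 0.00166). CXCL8, the best known neutrophil attractant, was already at 15688, 13201 and 11271 in cells alone, and 20604, 21676 and 20533 with myoblasts. It rose 1.58-fold (adjusted p = 0.0145), and this call was lost when single arrays were left out (adjusted p = 0.0661 without replicate 2 alone). A dimmer CXCL8 probe set had 17897, 20122 and 16582 with myoblasts and 7717, 10031 and 9903 alone. There the log2 difference was 0.99 (adjusted p = 0.00649 over probe sets, limma). The probe set tested for CXCL5 was under a signal of 16 on all 6 arrays. With the probe sets that can match several transcripts left out, 3 of these chemokines were called, and CXCL2, CXCL8 and PPBP could not be tested. Among the other chemokines 4 of 15 on the array were bright enough to test, and CCL20, the ligand of CCR6, was the only 1 called. CCL20 had 1196, 1419 and 1052 with myoblasts and 26.71, 68.77 and 106.4 alone, so that the groups lay far apart although the cultures alone varied widely among themselves (20.9-fold, adjusted p = 0.0022).

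Several of these genes are neighbours in the reference table, where called genes next to each other formed runs of CXCL8 and CXCL6, of CXCL1, PF4 and PPBP, and of CXCL3 and CXCL2, all on chromosome 4. PF4, a platelet chemokine outside the lists, had a signal of 20.83, 12.45 and 10.33 with myoblasts and of 5.209, 4.848 and 5.854 alone. Both of its means lie under 16, so no fold is given, and its adjusted p of 0.0223 became 0.092 without replicate 2 alone.

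Of the colony-stimulating factors and gp130 cytokines, 4 of 12 genes tested rose and 0 fell. IL6, the main ligand of the IL6 receptor and gp130, had signals of 9662, 10780 and 9047 with myoblasts, against 1293, 1454 and 1505 alone. The difference was 2.79 ± 0.08 on the log2 scale (SE, adjusted p = 8.25e-06), or 6.93-fold. CSF2, the granulocyte and macrophage factor, had 762.7, 890 and 775 with myoblasts and 123.5, 142.2 and 143.8 alone, a 5.93-fold rise (adjusted p = 7.69e-05). CSF3, the granulocyte factor, had 248.5, 178.7 and 248.5 with myoblasts but lay at 4.527, 4.523 and 4.514 alone, at the bottom of the scale, and it was higher by at least 13.9-fold (adjusted p = 8.24e-06). IL11 had 77.33, 73.43 and 71.62 with myoblasts and 49.45, 49.33 and 48.95 alone. Its 1.5-fold rise (adjusted p = 0.0251) was not kept without replicate 1 with myoblasts (adjusted p = 0.0984). LIF, CLCF1 and OSMR, 2 further gp130 ligands and the oncostatin M receptor, had log2 differences of 0.11, 0.22 and 0.56 and did not pass (adjusted p = 0.156, 0.186 and 0.137).

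Ligands, receptors and signalling partners of the interleukin-1 family were among the calls. Of 13 ligands, receptors and adaptors tested, 7 rose and 1 fell, with a median log2 difference of 0.45. IL1B, which needs cleavage before release, was among the brightest genes in both groups, with 28916, 28803 and 26831 with myoblasts and 16156, 17706 and 18434 alone, a 1.62-fold rise (adjusted p = 0.000665). IL1A had 100.1, 51.27 and 62.25 with myoblasts and 7.179, 6.975 and 11.6 alone, at least 4.27-fold higher (adjusted p = 0.00181). CASP1, the protease that cleaves pro-IL1B and pro-IL18, had 147.7, 114.8 and 121.1 with myoblasts and 24.82, 27.12 and 26.84 alone, a 4.84-fold rise (adjusted p = 0.000277). CARD16, a decoy relative of CASP1 next to it on chromosome 11, was called higher too (adjusted p = 0.015, and 0.0715 without replicate 2 alone), and the sequences of both are much alike.

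IL33, an alarmin held in the nucleus, and its receptor IL1RL1 rose together. IL33 had 2621, 2182 and 2677 with myoblasts and 1392, 1159 and 1125 alone, a 2.04-fold rise (adjusted p = 0.00256). IL1RL1 had 655.5, 592.5 and 560.2 with myoblasts and 335, 280.6 and 247.4 alone, a 2.11-fold rise (adjusted p = 0.00485, and 0.219 without probe sets that can match several transcripts (_s_at, _x_at and _a_at)). IRAK2, a kinase of the receptor complex, rose 1.37-fold with hardly any spread, at 7054, 6990 and 7056 with myoblasts and 5190, 5152 and 5099 alone (adjusted p = 0.000521). IL18 was the member that fell, with a log2 difference of -0.28 (adjusted p = 0.0255, and 0.0954 without replicate 2 alone). IL18R1 rose 1.7-fold (adjusted p = 0.0269, and 0.0946 without replicate 3 alone). The receptor chains IL1R1 and IL1RAP had log2 differences of -0.40 and 0.22 and did not pass (adjusted p = 0.204 and 0.187). IL37, an anti-inflammatory member that lies beside IL1A and IL1B on chromosome 2, had 64.75, 51.96 and 78.22 with myoblasts and 8.179, 18.6 and 7.349 alone, at least 3.81-fold higher (adjusted p = 0.00704).

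**Figure D2:**
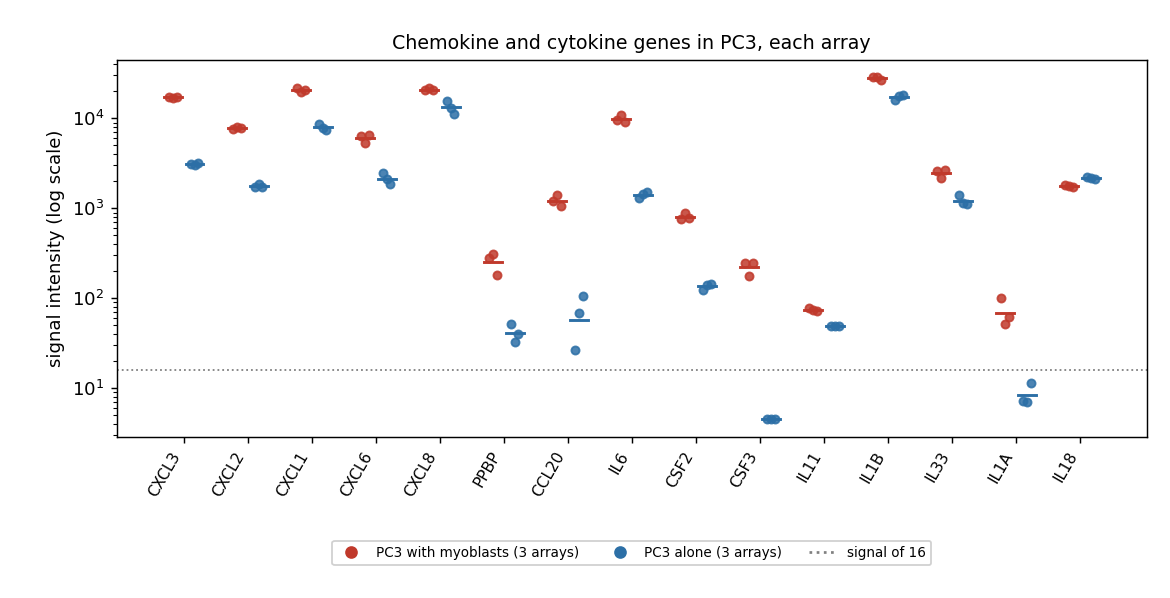
Signal of 15 chemokine and cytokine genes on each array (log axis), PC3 with myoblasts left and PC3 alone right, with bars at the geometric means and a dotted line at a signal of 16. IL6, CXCL3, CSF2 and CSF3 show wide gaps between the groups, while CXCL8 and IL1B start high and move less.

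Among the NF-kappaB genes the calls fell on inhibitors and other modulators, and no REL-family subunit was called. Of 23 subunits, kinases and inhibitors tested 6 rose and 2 fell, with a median log2 difference of 0.10. NFKBIZ, a nuclear IkappaB protein needed for IL6 and CXC chemokine transcription, had 6698, 5715 and 6109 with myoblasts and 2617, 1994 and 1940 alone, a 2.85-fold rise (adjusted p = 0.000665). BCL3, another nuclear IkappaB protein, had 469.2, 482.7 and 509.3 with myoblasts and 152.8, 151.5 and 188.8 alone, a 2.98-fold rise (adjusted p = 0.000602). ZC3H12A, an RNase that degrades IL6 mRNA, had 64.53, 62.75 and 69.65 with myoblasts and 19.05, 13.09 and 17.21 alone, a 4.04-fold rise (adjusted p = 0.000846). The classical inhibitor NFKBIA and the adaptor TNIP1 rose less, by log2 differences of 0.52 ± 0.05 and 0.52 ± 0.04 (adjusted p = 0.00197 and 0.000602). RELA, the main activating subunit, differed by -0.04 (adjusted p = 0.664). TNFAIP3, a ubiquitin-editing inhibitor, rose by 0.32 (adjusted p = 0.0219, and 0.0857 without replicate 1 with myoblasts). CYLD, a deubiquitinase, and IKBKB, an IkappaB kinase, fell by 0.61 and 0.45 (log2; adjusted p = 0.0126 and 0.0364). Their calls were lost without replicate 2 alone (adjusted p = 0.0661 for CYLD) and without replicate 1 with myoblasts (adjusted p = 0.144 for IKBKB). BIRC3 had a log2 difference of 0.36 and did not pass (adjusted p = 0.0548).

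Effector genes of inflammation rose in 8 of 19 cases tested and fell in 0, with a median log2 difference of 0.295. PTGES, the prostaglandin E synthase, had 7568, 6857 and 7163 with myoblasts and 1504, 1534 and 1673 alone, a 4.58-fold rise (adjusted p = 7.57e-06). PLA2G4A, the phospholipase that frees arachidonic acid for prostaglandin synthesis, was among the 15 largest rises, with 175.7, 224.9 and 149.4 with myoblasts and 34.98, 22.12 and 9.808 alone (9.2-fold, adjusted p = 0.00682). ICAM1, a ligand of leukocyte integrins, had 5234, 5676 and 5045 with myoblasts and 2875, 3128 and 3011 alone, a 1.77-fold rise (adjusted p = 0.000447). TNFAIP6, a hyaluronan-binding protein, was at least 3.45-fold higher (adjusted p = 0.000202). IER3 and BCL2A1, which protect from cell death, rose by log2 differences of 0.48 ± 0.03 and 0.43 ± 0.04 (adjusted p = 0.000245 and 0.00141). CD55, which blocks complement on the cell surface, was the only 1 of 8 acute phase and complement genes tested that was called, and rose by 0.63 ± 0.05 (adjusted p = 0.00046). CD59, another complement blocker, was tested on its brightest probe set and did not pass. There the log2 difference was -0.10 (adjusted p = 0.0814 over probe sets, limma). The dimmer probe sets of CD59 were called lower in that fit. Their log2 differences were -0.32, -0.31, -0.45 and -0.83 (adjusted p = 0.0159, 0.0441, 0.00243 and 0.0289). Of 16 ligands and receptors of the TNF superfamily tested, 0 were called by limma's test, with a median of -0.01.

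Antiviral genes that interferon induces rose in part. Of 35 tested 12 rose and 0 fell, with a median log2 difference of 0.49, and 33 of the 35 differences were above 0. OAS1, a sensor of double-stranded RNA, had 138.3, 169.9 and 182.9 with myoblasts and 11.25, 9.193 and 17.74 alone, higher by at least 9.82-fold (adjusted p = 0.000367). IFI44L, a feedback regulator of the interferon response, had 214.4, 240.8 and 193.8 with myoblasts and 58.67, 72.45 and 55.78 alone, a 3.48-fold rise (adjusted p = 0.000857). ISG20, an exonuclease that degrades viral RNA, had 3040, 3313 and 2852 with myoblasts and 834.8, 1041 and 1236 alone, a 2.99-fold rise (adjusted p = 0.00109). OASL, a relative of OAS1 without its synthase activity, had 3208, 3045 and 3345 with myoblasts and 1409, 1312 and 1331 alone, a 2.37-fold rise (adjusted p = 9.1e-05). IFIT1, which binds uncapped viral RNA, had 985.9, 1050 and 1140 with myoblasts and 567.3, 477.9 and 464.2 alone, a 2.11-fold rise (adjusted p = 0.00181). IFI44, beside IFI44L on chromosome 1, and IFIT2 rose 1.77-fold and 1.41-fold (adjusted p = 0.00169 and 0.0024), and the call of IFI44 was lost without the _s_at, _x_at and _a_at probe sets (adjusted p = 0.132).

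The remaining 5 antiviral calls were lost when single arrays were left out. DDX60, SAMD9, RIGI, HERC6 and OAS3 had adjusted p-values of 0.0114, 0.00775, 0.0165, 0.0179 and 0.0328, which became 0.0591, 0.0502, 0.0838, 0.0821 and 0.12 without replicate 1 with myoblasts. ISG15, a ubiquitin-like modifier, USP18, its protease, and IFIH1, an RNA sensor, had log2 differences of 0.34, 0.39 and 0.74 and did not pass (adjusted p = 0.0644, 0.0641 and 0.0591). Among 19 interferons, receptors and signalling genes tested 2 rose and 0 fell. These were IFNGR1, a receptor chain for interferon gamma, with adjusted p = 0.0163 (0.0709 without replicate 2 alone), and IRF2 with 0.0248 (0.109 without replicate 1 with myoblasts). Of 17 genes of MHC class I presentation only PSMB9, a subunit of the immunoproteasome, was called (5.88%, against 7% of all genes). It had 44.76, 44.62 and 43.66 with myoblasts and 21.71, 23.03 and 24.72 alone, a 1.92-fold rise (adjusted p = 0.0051).

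**Figure D3:**
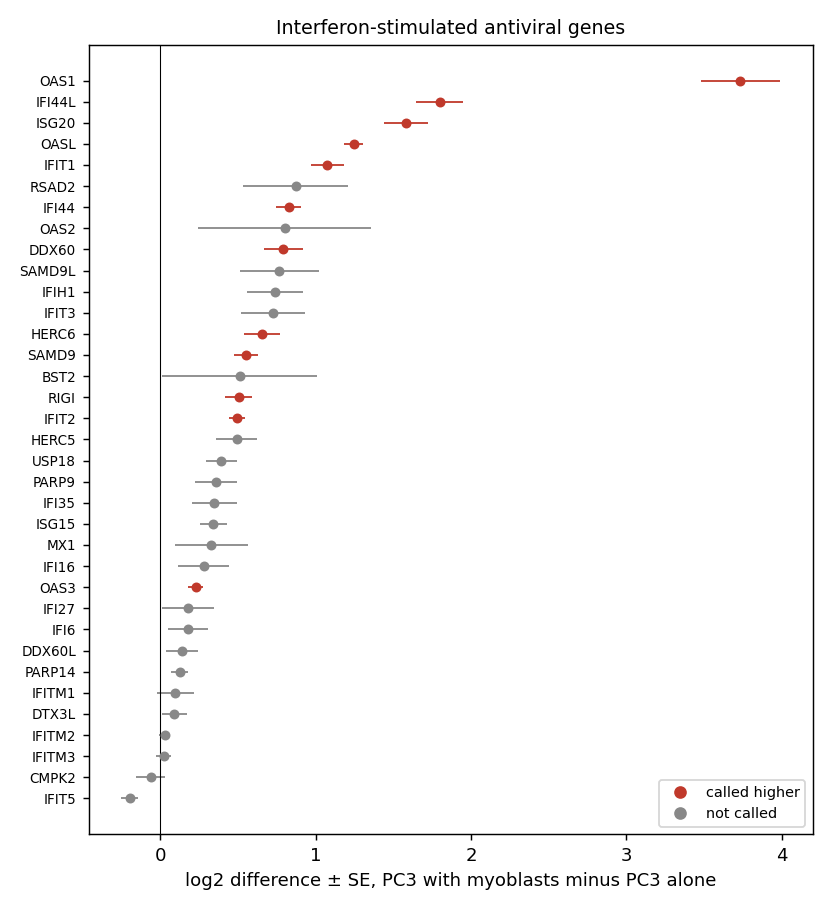
Log2 difference with its standard error for the 35 interferon-stimulated antiviral genes tested, PC3 with myoblasts minus PC3 alone (3 arrays each). OAS1 stands apart at 3.73, 12 genes are called higher, and most others lie to the right of 0 without passing the test.

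The immediate early genes, which growth factors switch on within minutes through ERK, moved both ways. Of 21 tested 2 rose and 4 fell. EGR1, the zinc-finger factor of this class, had 64.07, 80.92 and 93.92 with myoblasts and 331.2, 328.8 and 402.8 alone, 4.48-fold lower (adjusted p = 0.000657). NAB1, which represses EGR factors, had 7064, 6834 and 7140 with myoblasts and 4643, 4476 and 4251 alone, a 1.57-fold rise (adjusted p = 0.000404). FOSL1, KLF2 and KLF6 fell by 0.13, 0.64 and 0.22 (log2; adjusted p = 0.0363, 0.0326 and 0.0114). Those calls were lost without replicate 1 with myoblasts (adjusted p = 0.148 for FOSL1), replicate 3 alone (adjusted p = 0.105 for KLF2) and replicate 3 with myoblasts (adjusted p = 0.0531 for KLF6). JUND rose by 0.18 (adjusted p = 0.0265, and 0.121 without replicate 1 with myoblasts).

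The phosphatases that switch ERK and its kin off went opposite ways. Of 15 ERK feedback genes tested 1 rose and 3 fell. DUSP5, which acts on nuclear ERK, had 2691, 2723 and 2793 with myoblasts and 4246, 4290 and 4334 alone, 1.57-fold lower (adjusted p = 0.00028). DUSP1, which acts on p38 and JNK as well, had 3017, 2959 and 2926 with myoblasts and 1896, 1922 and 2072 alone, 1.51-fold higher (adjusted p = 0.00123). SPRY1, an inhibitor of growth factor receptor signalling, fell by 0.47 ± 0.06 (adjusted p = 0.00579), and SPRY4 by 0.50 (adjusted p = 0.0272, and 0.115 without replicate 1 with myoblasts). Of 13 EGF receptor family genes and ligands tested only EGFR was called (7.69%, against 7% of all genes), and fell by 0.38 (adjusted p = 0.0276, and 0.106 without replicate 2 alone). Of 14 STAT3 feedback and SOCS genes tested 0 were called higher and 2 lower. Yet 11 of the 14 differences were above 0, with a median log2 difference of 0.13. The 2 called lower were SOCS1 and SOCS2, inhibitors of cytokine receptors, with adjusted p = 0.0298 and 0.039 (0.106 without replicate 1 and 0.125 without replicate 3 with myoblasts).

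Targets of YAP and TEAD, which respond to cell tension and density, fell more often than they rose: 7 of 18 tested fell and 2 rose, with a median log2 difference of -0.18. CCN2, a secreted matricellular protein, had 2471, 2643 and 2361 with myoblasts and 4826, 5495 and 5454 alone, 2.11-fold lower (adjusted p = 0.00029). AMOTL1, which holds YAP at junctions, and FJX1 fell by 0.48 ± 0.04 and 0.53 ± 0.05 (log2; adjusted p = 0.000839 and 0.00196). NT5E, the ectonucleotidase CD73, fell by 0.48 ± 0.07 (adjusted p = 0.00682). The calls of ANKRD1, AJUBA and DLC1, which fell, were lost without replicate 1 with myoblasts (adjusted p = 0.0784, 0.0746 and 0.0764). The number that fell was 4 without replicate 1 or 3 with myoblasts or replicate 3 alone. The rises were F3, the tissue factor (adjusted p = 0.0147, and 0.0699 without replicate 2 alone), and TGFB2, a TGF-beta ligand (adjusted p = 0.0181, and 0.0859 without replicate 1 with myoblasts).

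Of 21 matrix proteases and inhibitors tested 5 rose and 4 fell. PLAT, the tissue plasminogen activator, had 13897, 12054 and 13849 with myoblasts and 17627, 15926 and 16282 alone, 1.25-fold lower (adjusted p = 0.0307). Its call was lost in each of the 6 omissions of an array (adjusted p up to 0.0859, without replicate 3 alone). PLAU, the urokinase activator of plasminogen, rose 1.19-fold (adjusted p = 0.00775), and SERPINE2, a serine protease inhibitor, rose 1.32-fold (adjusted p = 0.00223). TFPI2, an inhibitor of plasmin and other serine proteases, had 21680, 22699 and 20830 with myoblasts and 12013, 14364 and 14248 alone, a 1.61-fold rise (adjusted p = 0.00235). MMP1, the interstitial collagenase, was 1.46-fold lower (adjusted p = 0.0013) and ADAMTS6, a metalloprotease, 1.82-fold lower (adjusted p = 0.00467). TIMP1, an inhibitor of metalloproteases, rose 1.15-fold (adjusted p = 0.00595). MMP13 and MMP10 had log2 differences of 1.02 and 0.92 and did not pass (adjusted p = 0.0556 and 0.0641).

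In the TGF-beta and activin list 5 of 23 genes tested rose and 2 fell. PMEPA1, a TGF-beta target that damps the pathway, had 7765, 8186 and 7947 with myoblasts and 3435, 2969 and 2765 alone, a 2.62-fold rise (adjusted p = 0.000205). INHBB, an activin and inhibin subunit, had 2063, 2122 and 1933 with myoblasts and 3101, 3391 and 3487 alone, 1.63-fold lower (adjusted p = 0.00129). INHBA, the other such subunit, rose 1.5-fold (adjusted p = 0.0164, and 0.0792 without replicate 1 with myoblasts). GDF15, a stress cytokine of the same superfamily, rose 1.81-fold (adjusted p = 0.00771). NOG, a secreted antagonist of BMPs, had 5598, 5711 and 5228 with myoblasts and 8589, 8807 and 8556 alone, 1.57-fold lower (adjusted p = 0.000363). ID3, a BMP target, was 1.6-fold lower (adjusted p = 0.00488), and these were the 2 of 17 BMP and ID genes tested that were called (11.8%, against 7% of all genes).

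Single members of other developmental pathways changed. HHIP, which binds and blocks hedgehog ligands, had 47.07, 52.62 and 51.16 with myoblasts and 304.1, 280.2 and 330.1 alone, 6.06-fold lower (adjusted p = 8.03e-05). It was the only 1 of 10 hedgehog genes tested that was called. Of 15 Notch genes tested 2 rose and 0 fell, and of 19 Wnt genes 1 rose and 1 fell. HES1, a Notch target, rose 1.48-fold (adjusted p = 0.00447). JAG1, a Notch ligand, rose 1.27-fold (adjusted p = 0.0107, and 0.0603 without replicate 1 with myoblasts). FZD8, a Wnt receptor, had 14374, 14898 and 15365 with myoblasts and 10148, 9393 and 8525 alone, a 1.59-fold rise (adjusted p = 0.0016). FZD1, another Wnt receptor, fell by 0.49 (log2; adjusted p = 0.0181, and 0.0759 without replicate 2 alone). FGF5, a fibroblast growth factor, had 1509, 1439 and 1294 with myoblasts and 3773, 3838 and 3879 alone, 2.71-fold lower (adjusted p = 8.03e-05). Of 17 angiogenic and vasoactive factors, FGF5 was the 1 that fell, and 2 rose. SEMA3F, an axon guidance factor that also limits vessel growth, rose 1.37-fold (adjusted p = 0.00221). SEMA3C, a related guidance factor, rose 1.48-fold (adjusted p = 0.0152, and 0.0765 without replicate 1 with myoblasts).

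Genes that epithelia of gut and airway use in defence rose in 8 of 13 cases tested and fell in 0, with all 13 differences above 0 and a median of 0.33. MUC13, a membrane mucin, had 508.3, 444.2 and 555 with myoblasts and 186.5, 143.7 and 137.2 alone, a 3.24-fold rise (adjusted p = 0.00123). AGR2, which helps mucins fold, had 4361, 5031 and 4528 with myoblasts and 2649, 3056 and 2651 alone, a 1.67-fold rise (adjusted p = 0.0024). CEACAM6, a cell adhesion protein, was at least 6.15-fold higher (adjusted p = 0.00165), with 132.9, 50.97 and 140.4 with myoblasts and 5.674, 5.788 and 7.494 alone. LCN2, which binds bacterial siderophores, TFF1 and CEACAM1 had adjusted p = 0.0163, 0.0185 and 0.0333, and 0.0853, 0.0833 and 0.12 without replicate 1 with myoblasts. SLPI, a protease inhibitor, had 0.0363 (0.118 without replicate 2 alone), and S100P had 0.0143 (0.0652 without replicate 3 with myoblasts). The number called was 4 without replicate 1 with myoblasts, 3 without replicate 2 alone, and 5 without replicate 2 or 3 with myoblasts or replicate 3 alone. PI3, the inhibitor elafin, had a log2 difference of 0.06 and did not pass (adjusted p = 0.354).

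Keratin and junction genes, counted together, rose more often than they fell, with 6 of 25 tested higher and 2 lower. CLDN1, a tight junction protein, had 1517, 1484 and 1504 with myoblasts and 768, 701.3 and 762.2 alone, a 2.02-fold rise (adjusted p = 0.000363). GJB2, a gap junction protein, rose 1.74-fold (adjusted p = 0.00378). KRT7 and KRT80, keratin neighbours on chromosome 12, rose 1.3-fold and 1.44-fold (adjusted p = 0.00499 and 0.00715), and without the _s_at, _x_at and _a_at probe sets the call of KRT7 was lost (adjusted p = 0.0867). DSC3, a desmosomal cadherin, was 1.5-fold lower (adjusted p = 0.00499). KRT8, also a carcinoma epithelium marker, was the other that fell, with 1863, 2008 and 1799 with myoblasts and 2271, 2875 and 3029 alone. Its call was lost without replicate 2 alone (adjusted p = 0.142). CLDN4, another tight junction gene, had a log2 difference of -0.64 and did not pass. Of 12 regulators of epithelial to mesenchymal transition tested 2 rose and 0 fell. EHF, an epithelial ETS factor on that list, had 1778, 1994 and 1745 with myoblasts and 486.6, 366.7 and 342.9 alone, a 4.66-fold rise (adjusted p = 0.00028). ZEB2, a repressor of epithelial genes, was called higher as well (adjusted p = 0.0416), but not without replicate 2 alone (adjusted p = 0.145). VIM, the mesenchymal filament protein, had a log2 difference of -0.31 and did not pass (adjusted p = 0.0641).

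Among matrix genes 4 of 24 rose and 2 fell. THBS1, an adhesive glycoprotein that activates TGF-beta, had 7163, 5913 and 7046 with myoblasts and 4364, 3836 and 3519 alone, a 1.72-fold rise (adjusted p = 0.00533, and 0.234 without the _s_at, _x_at and _a_at probe sets). COL1A1, the collagen chain that is also the 1 bright fibroblast marker, had 900.8, 736.4 and 890.2 with myoblasts and 547.9, 437.8 and 497 alone. Its rise (adjusted p = 0.0126) was not kept without replicate 1 with myoblasts (adjusted p = 0.0683), and its partner COL1A2 lay at or under 5.258 on all 6 arrays. Of 21 integrins and laminins tested 4 rose and 0 fell. ITGA5, the fibronectin receptor chain, rose 1.3-fold (adjusted p = 0.018, and 0.081 without replicate 2 alone).

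Hypoxia targets went both ways: of 27 tested 3 rose and 4 fell. BHLHE40, a transcriptional repressor, had 5311, 5347 and 4778 with myoblasts and 3477, 3174 and 3041 alone, a 1.59-fold rise (adjusted p = 0.00205). STC1, a secreted glycoprotein, rose 1.34-fold (adjusted p = 0.00311), and VEGFA, the vessel growth factor, rose 1.49-fold (adjusted p = 0.0286, and 0.114 without replicate 1 with myoblasts). ADM, the vasodilator adrenomedullin, had 3032, 2946 and 2915 with myoblasts and 3503, 3983 and 3716 alone, 1.26-fold lower (adjusted p = 0.0179, and 0.0718 without replicate 3 with myoblasts). KDM3A, a histone demethylase, had a log2 difference of -0.25 (adjusted p = 0.0251, and 0.0984 without replicate 1 with myoblasts). BNIP3L, a mitophagy receptor, and NDRG1, a stress-response gene, had log2 differences of -0.19 and -0.14 (adjusted p = 0.0307 and 0.0485, and 0.109 and 0.158 without replicate 2 alone). SLC2A1, the glucose transporter, rose 1.46-fold (adjusted p = 0.00765) and was the only 1 of 21 genes of glucose uptake and glycolysis called (4.76%, against 7% of all genes). SLC7A5, a transporter of large amino acids, rose 1.31-fold (adjusted p = 0.00488), 1 of 3 of the 25 ATF4 response genes that rose, with 0 that fell. CREB3L2 was the only 1 of 20 genes of the unfolded protein response called, and rose 1.34-fold (adjusted p = 0.00326, and 0.471 without the _s_at, _x_at and _a_at probe sets). Of 26 sterol and fatty acid genes 0 were called.

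The aldo-keto reductases AKR1C1, AKR1C2 and AKR1C3, which act on steroids and lie side by side on chromosome 10, were the 3 of 19 NRF2 targets and reductases that rose, and 0 fell. AKR1C1 had 207.3, 213.2 and 186.3 with myoblasts and 71.27, 71.21 and 71.69 alone, a 2.83-fold rise (adjusted p = 0.000521). AKR1C3, which makes testosterone from androstenedione, had 1768, 1828 and 1650 with myoblasts and 1051, 1229 and 1096 alone, a 1.56-fold rise (adjusted p = 0.00502). AKR1C2 had adjusted p = 0.0336 (0.126 without replicate 2 alone), and the near-identical transcripts mean that signal may be shared between these genes. The zinc transporters SLC30A1, an exporter, and SLC39A10, an importer, moved in opposite directions. SLC30A1 had 1565, 1518 and 1756 with myoblasts and 2691, 2533 and 2682 alone, 1.64-fold lower (adjusted p = 0.0018). SLC39A10 had 10073, 9772 and 9980 with myoblasts and 6796, 6819 and 6372 alone, 1.49-fold higher (adjusted p = 0.000394). They were the 2 called of 11 metallothioneins and zinc transporters tested. CRYAB, a small heat shock protein, was at least 1.91-fold higher (adjusted p = 0.000665). It was the 1 of 14 heat shock genes that rose, and BAG3, a chaperone partner, the 1 that fell (adjusted p = 0.0259, and 0.109 without replicate 1 with myoblasts).

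The cell cycle lists differed from each other in their counts. Of 26 genes of G2 and M phase 0 rose and 5 fell, with a median log2 difference of -0.09, while of 26 genes of G1 and S phase 0 were called, with a median of -0.04. MKI67, the proliferation marker, had 2837, 2977 and 2740 with myoblasts and 3471, 3902 and 4369 alone. The number that fell was 1 without replicate 1 or 3 with myoblasts or replicate 2 alone, 3 without replicate 3 alone and 8 without replicate 1 alone. Adjusted p for CENPE, a kinetochore motor, was 0.00869 and 0.0505 without replicate 2 alone, and for CENPA, the centromeric histone, 0.0139 and 0.0755 without the same array. Adjusted p for MKI67 and for TPX2, a spindle protein, was 0.0247 and 0.0182, and 0.1 and 0.0938 without replicate 1 with myoblasts. For CENPF it was 0.0117, and 0.0528 without replicate 3 with myoblasts. CDC25C and CCNB1, which drive entry into mitosis, had log2 differences of -0.39 and -0.18 and did not pass (adjusted p = 0.0598 and 0.0753). Among genes that serve every cell, 0 of 40 ribosomal proteins and 0 of 14 circadian clock genes were called. Of 36 respiratory chain subunits 1 was called, NDUFS1, which rose (adjusted p = 0.0373, and 0.128 without replicate 1 with myoblasts).

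Genes known to respond to glucocorticoids went both ways, with 2 of 13 tested higher and 3 lower. Besides DUSP1, the thiamine transporter SLC19A2 rose (adjusted p = 0.0413). SGK1, a kinase that raises sodium uptake, and GADD45B, a stress sensor, fell by 0.30 and 0.40 in log2 (adjusted p = 0.0206 and 0.0197). Without replicate 1 with myoblasts these 3 had adjusted p = 0.161 for SLC19A2, 0.0972 for SGK1 and 0.0936 for GADD45B. FOXO3 fell too (adjusted p = 0.0395, and 0.515 without replicate 3 alone). Of 21 apoptosis regulators and p53 targets 1 rose and 1 fell, 9.52% called against 7% of all genes. They were CDKN1A, the cell cycle inhibitor p21 (adjusted p = 0.0281, and 0.105 without replicate 2 alone), and BCL2L1, which blocks cell death (adjusted p = 0.026, and 0.0942 without replicate 1 with myoblasts).

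Regulators of G protein signalling fell in 3 of 11 cases tested and rose in 1. RGS4, which shuts off Gi and Gq signals, had 3114, 2983 and 3143 with myoblasts and 5781, 5441 and 5123 alone, 1.77-fold lower (adjusted p = 0.000363). RGS20 had 103.5, 115.9 and 116 with myoblasts and 248.3, 183.2 and 234.2 alone (adjusted p = 0.0102, and 0.0544 without replicate 1 with myoblasts). RGS7 fell as well (adjusted p = 0.0234, and 0.0944 without replicate 2 alone), and RGS2 rose (adjusted p = 0.0181, and 0.0809 without the same array). Of 8 neurofilament and neuroendocrine genes tested 1 rose and 1 fell. SCG5, a secretory granule chaperone, had 1442, 1595 and 1389 with myoblasts and 589.6, 677.3 and 751.2 alone, a 2.2-fold rise (adjusted p = 0.00147). NEFM, a neurofilament subunit, was at least 4.22-fold lower (adjusted p = 0.00384).

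**Figure D4:**
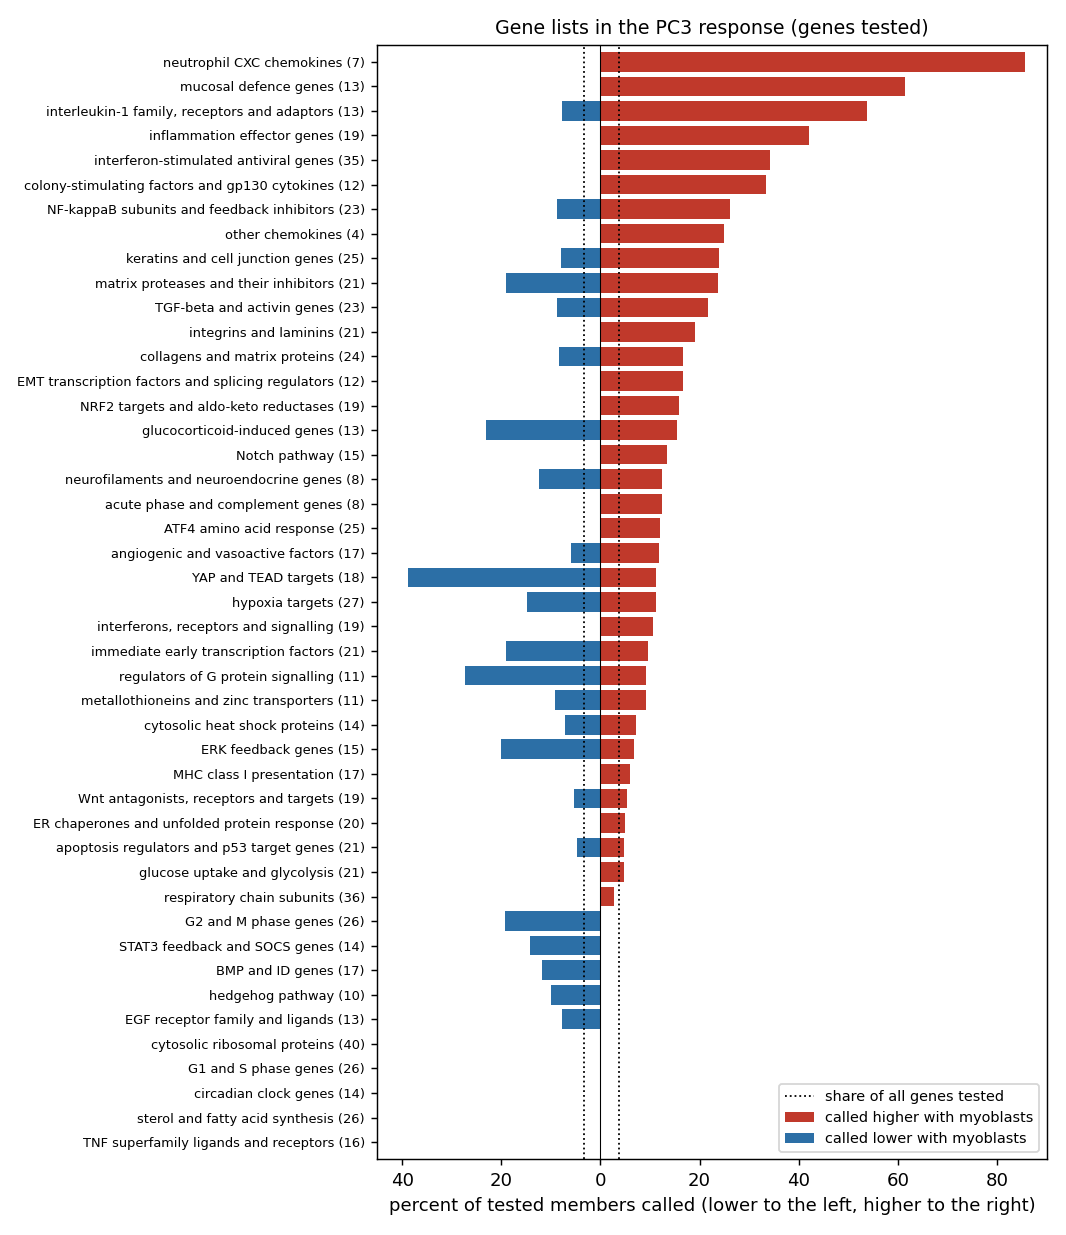
Share of tested members of 45 gene lists called higher (right) or lower (left) in PC3 with myoblasts, in percent, with the number tested in brackets and dotted lines at the shares of all genes, 3.67% higher and 3.33% lower. The chemokine, mucosal defence and interleukin-1 lists reach furthest to the right and the YAP and TEAD list furthest to the left.

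Genes outside the lists were among the largest changes. ARNT2, a partner of bHLH-PAS factors, had 138.3, 178.9 and 171.3 with myoblasts and 4.506, 4.598 and 4.473 alone, at least 10.1-fold higher (adjusted p = 7.57e-06). ARL14, a small GTPase, had 376.9, 249.2 and 236.7 with myoblasts and 18.27, 6.383 and 5.847 alone, at least 16.8-fold higher (adjusted p = 0.00106). LYPD3, a GPI-anchored adhesion protein, had 216.4, 361.6 and 359.2 with myoblasts and 25.18, 17.97 and 44.87 alone, an 11.14-fold rise (adjusted p = 0.00209). WIPF1, which binds the actin regulator WASP, had 106.7, 94.59 and 80.4 with myoblasts and 7.468, 12.32 and 10.47 alone, at least 5.83-fold higher (adjusted p = 0.000336). HAO1, a peroxisomal oxidase of liver, had 365.2, 438.1 and 418.4 with myoblasts and 16.59, 28.77 and 54.4 alone, a 13.71-fold rise (adjusted p = 0.00209). TCIM and INSL4 were at least 8.47-fold and 4.58-fold higher (adjusted p = 0.000474 and 0.00028). DMBT1, a mucosal scavenger protein, had 93.13, 61.18 and 14.75 with myoblasts and 4.091, 4.091 and 4.097 alone, so that 1 of its co-culture arrays lay under 16, and its adjusted p of 0.0197 became 0.0785 without replicate 2 alone.

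The 15 largest falls held genes of varied function. MAP7D3, a microtubule-binding protein, had 143.4, 138.5 and 97.81 with myoblasts and 766.4, 766 and 790.8 alone, 6.21-fold lower (adjusted p = 0.000264). CPED1 had 130.7, 112.4 and 119.1 with myoblasts and 486.7, 344 and 419.4 alone, 3.42-fold lower (adjusted p = 0.000909). NR3C2, the mineralocorticoid receptor, had 199.1, 141 and 193.3 with myoblasts and 648, 490.6 and 704.5 alone, 3.46-fold lower (adjusted p = 0.00224). PLPPR5 and CFAP251 were 5.66-fold and 5.97-fold lower (adjusted p = 0.00311 and 0.00643), and STRIP2 was 3.47-fold lower (adjusted p = 0.00764). CCDC85A and GPR146, whose co-culture means lay under 16, were at least 4.79-fold and 1.31-fold lower (adjusted p = 0.00393 and 0.000404). XDH, which makes uric acid, and NRK had adjusted p = 0.0266 and 0.0405, and 0.0974 and 0.147 without replicate 1 with myoblasts.

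**Figure D5:**
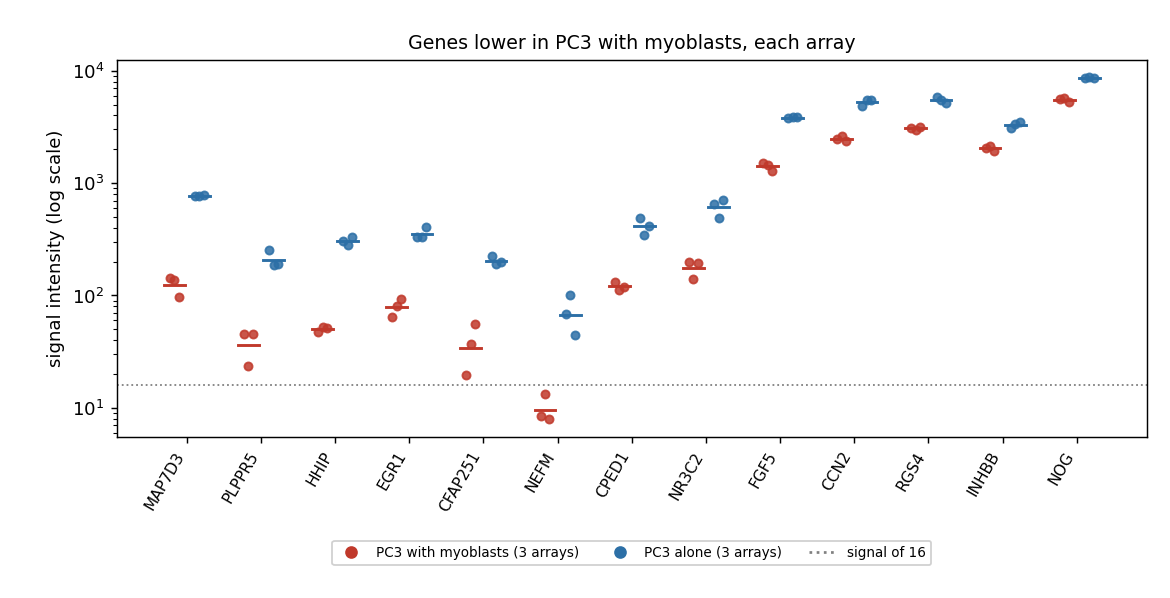
Signal of 13 genes called lower on each array (log axis), PC3 with myoblasts left and PC3 alone right, with bars at the geometric means and a dotted line at a signal of 16. The groups do not overlap for any of the 13, and NEFM reaches the bottom of the scale with myoblasts.

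The authors' deposited table gives a signed fold change whose sign is negative where the co-culture was higher, and an unadjusted p-value. In the authors' deposited table CXCL3, IL6 and CSF2 have -5.453, -6.936 and -5.928, the same sizes as in the fit but the opposite sign. The authors' deposited table has p under 0.05 for 4689 probe sets, and 242 of them are at least 2-fold higher and 182 at least 2-fold lower with myoblasts. After Benjamini-Hochberg adjustment of the p-values in the authors' deposited table, 92 probe sets pass 0.05.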

How the data were processed

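Biotin-labelled RNA of PC3 cells was measured on human oligonucleotide arrays, 3 per group. The authors deposited linear signal intensities, and MAS5 is the only tool named per the submitters' processing notes, with no version given. The intensities ran from 3.31 to 73706, with 57.7% of values below 16, and 2 deposited tables held the same values for all 54675 probe sets. The authors also deposited a p-value and a score (a signed fold change) for each probe set, which were used only to describe their table. The 6 columns of other samples were not used.

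Control probe sets (62) and those with no symbol (13164) or several (1522) were set aside, which left 39927. Of these, 38545 (96.5%) had a gene ID in the RefSeq table, from which 7383 symbols were updated. Signals were taken to log2 with no added constant. Probe sets with a mean log2 above the median probe set's, 2.48, entered, and the brightest stood for its gene. The 12314 genes were fitted in limma 3.58.1 (R 4.3.3) on the 6 arrays with an intensity trend. Tests were two-sided with Benjamini-Hochberg adjustment over all genes, and an adjusted p under 0.05 made a call. Errors are standard errors of the log2 difference, co-culture minus alone, and 3 arrays per group limit their precision. A fold is the ratio of geometric means. Where a group's mean lay under a signal of 16 the fold is a bound against 16.

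In simulated data with the same 12314 genes the fit called 58%, 84% and 100% of the genes given log2 changes of 0.5, 1 and 2, and 3.4% of calls were false. Only a small part of the genes was given a change there, and the noise was normal and independent between genes and arrays. These shares describe that setting and do not measure the error of the calls reported here. Since no source used here states whether repeats came from separate cultures, p-values cover only the variation among these samples, which may be technical.

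The genes and the 45 lists were chosen with earlier results of these data known. Genes named were the 15 largest rises and falls with groups that did not overlap, called list members with up to 3 uncalled members of smallest p, reference and marker genes, genes with opposed probe sets, and called neighbours. RELA, IL1R1, IL1RAP, CTNNA1, STAT3, PI3, IL37, PF4, CARD16 and LGALS1 were chosen after their values were seen. Some genes that the rule names are not reported here. Alternatives were other normalizations, filters, constants, variance models, probe set choices, thresholds, a replicate block and the omission of each array. Plots were made with matplotlib 3.10.9 under Python 3.11.15.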

Additional observations from a re-analysis of the deposited data

Results flagged for a closer look

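Among the probe sets to which the deposited table gives no gene symbol, and which entered no gene-level comparison, 7 were at least 4-fold higher with myoblasts when signals under 16 were set to 16, with groups that did not overlap. These are values with no test. The probe set 231628_s_at had signals of 39817, 35838 and 38220 with myoblasts, among the brightest on those arrays, against 4.047, 4.045 and 4.041 alone, a 2370.0-fold difference against the floor. The authors' deposited table gives it a signed fold change of -9385.7, negative where the co-culture is higher. The probe set 216405_at, whose title names a clone of a beta-galactoside-binding lectin gene, had 5343, 6000 and 4937 with myoblasts and 9.761, 9.743 and 9.677 alone, 338.0-fold against the floor. A second probe set with the same title, 216500_at, had 1265, 1710 and 1077 with myoblasts and 54.05, 44.19 and 52.02 alone, a 26.6-fold difference. LGALS1, the gene of such a lectin that has its own named probe set, had 13710, 15218 and 13355 with myoblasts and 12238, 15181 and 15655 alone, and did not pass the test in limma (log2 difference -0.02, adjusted p = 0.932).

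The other 4 were dimmer. They were 1558871_at (6.48-fold), 231655_x_at (6.17-fold), 1554220_a_at (4.8-fold) and 217676_at (4.32-fold), each against the floor. The title of 217676_at names a transcribed locus strongly similar to a predicted protein of Mus musculus, and that of 1554220_a_at to 1 of Pan troglodytes. For 217676_at the signals were 92.75, 94.39 and 37.76 with myoblasts and 4.39, 4.386 and 4.369 alone. For 231655_x_at the signals were 109.6, 74.65 and 117.6 with myoblasts and 6.853, 6.533 and 5.842 alone. Under the same rule 5 unnamed probe sets were lower, 234632_x_at by 9.59-fold, 222145_at by 5.78-fold, 232095_at by 5.25-fold, 236647_at by 4.96-fold and 238368_at by 4.75-fold. For 234632_x_at the signals were 10.78, 147.5 and 11.61 with myoblasts and 311.2, 222.8 and 480.4 alone. What these probe sets measure was not analysed here, and whether RNA of the mouse myoblasts reached the co-culture samples was not tested.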

How the results depend on the processing

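The calls of 186 named genes were followed through the alternatives. The markers EPCAM, MEF2C and PECAM1 were not among them. Of these 186 called genes, 100 kept their call in every omission of an array, 86 lost it in at least 1 omission and 76 in 3 or more. Under every alternative 63 kept it. Where an adjusted p without 1 array is given for a gene, it is the highest of its omissions, and other omissions may have lost the call too. AKR1C2, KLF2, NDUFS1, PLAT, SLPI and SOCS1 lost their call in all 6 omissions. None of these 186 changed sign except NDUFS1 (-0.163), without the _s_at, _x_at and _a_at probe sets, where a dimmer probe set stood for the gene. Without those probe sets the calls of IL1RL1, IFI44, CREB3L2, FBN1, IFNGR1, KRT7, TGFB2 and THBS1 were also lost. The 862 calls became 3644 with array weights (2014 higher, 1630 lower), 208 when the fold was tested against 1.2 (141 and 67), 339 without moderation of the spread (186 and 153) and 319 at an adjusted p under 0.01 (198 and 121). With 1 array left out they ranged from 341 to 1191 (214 to 662 higher, 127 to 529 lower). The other alternatives gave 595 to 949 calls.

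Same-numbered arrays had correlations of deviations of 0.082, 0.117 and -0.111, and different-numbered arrays had -0.237 to 0.171. With 3 arrays per group these values cannot decide whether same-numbered samples were handled together. With the number as a replicate block 613 genes were called, 349 higher and 264 lower, and 578 of them were among the 862 with the same direction. Under the replicate block 0 interleukin-1 family genes were called lower, against 1 without it.

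In the gene lists the number of members called changed as follows. The neutrophil chemokines called higher, 6, were 3 without the _s_at, _x_at and _a_at probe sets and 5 to 6 with 1 array left out. The colony-stimulating factors and gp130 cytokines called higher, 4, were 1 with the filter at the 75th percentile, 7 with array weights and 3 to 4 with 1 array left out. The interleukin-1 family members called higher, 7, were 3 with that filter, 4 without those probe sets, 4 without moderation and 6 to 7 with 1 array left out; the 1 called lower was 0 with the fold tested against 1.2 and at an adjusted p under 0.01, and 0 to 1 with 1 array left out. The antiviral genes called higher, 12, were 19 with array weights, 6 with the fold tested against 1.2 and 8 to 14 with 1 array left out, and array weights called 1 lower. The YAP and TEAD targets called lower, 7, were 3 with the fold tested against 1.2, 4 without moderation, 4 at an adjusted p under 0.01 and 4 to 7 with 1 array left out; the 2 called higher were 0 under each of these 3, 1 without those probe sets, and 0 to 2 with 1 array left out. The G2 and M phase genes called lower, 5, were 2 with no intensity trend, 12 with array weights, 8 with the mean of probe sets, 2 without those probe sets, 0 with the fold tested against 1.2, 3 without moderation, 1 at an adjusted p under 0.01 and 1 to 8 with 1 array left out. The mucosal defence genes called higher, 8, were 5 with the filter at the 75th percentile, 5 with no intensity trend, 3 with the fold tested against 1.2, 3 without moderation, 3 at an adjusted p under 0.01 and 3 to 6 with 1 array left out. With the filter at the 75th percentile, 124 of the 186 named called genes were still tested, and 0 of these lost their call. The smaller list counts under that filter come from members that were not tested. Without the _s_at, _x_at and _a_at probe sets, CXCL2, CXCL8 and PPBP had no probe set left to test. The cause of the other shifts was not tested. Signals near the bottom of the scale give only bounds.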

Other observations

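Probe sets of the same gene mostly moved alike. Of 425 called genes with 2 or more probe sets bright enough to test, all probe sets had the same sign in 367, and all were called in the same direction in 94. In TSC22D1, a leucine zipper regulator with long and short isoforms, 2 probe sets were called in opposite directions. The probe set 215111_s_at had 12433, 10811 and 11581 with myoblasts and 8215, 8205 and 8141 alone, a log2 difference of 0.50 (adjusted p = 0.00427 over probe sets, limma). The probe set 235315_at had 1873, 1749 and 1863 with myoblasts and 2594, 2514 and 2711 alone, a log2 difference of -0.51 (adjusted p = 0.0043). Of 6037 genes with 2 or more probe sets, 178 had 2 or more of them called, which opposed calls require. TSC22D1 was the only 1 of these 178 with opposed calls.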
